A study of Caenorhabditis elegans with 123 samples.

Results

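Y-box proteins are RNA-binding proteins built around a cold-shock domain, and C. elegans has several small ones, the CEY proteins. They coat messenger RNA in the cytoplasm and take part in the storage and translation of maternal transcripts in the germ line and the early embryo. CEY-2 and CEY-3 are known mainly from the germ line, whereas CEY-1 and CEY-4 are also found in somatic tissues. The 4 genes cey-1, cey-2, cey-3 and cey-4 were followed here, each defined by the array probe sets that the platform annotation assigns to that symbol alone. They account for 7 of the 22548 probe sets tested and for 4 of 17118 genes with a single symbol: 3 probe sets for cey-1 (F33A8.3), 1 for cey-2 (F46F11.2), 1 for cey-3 (M01E11.5) and 2 for cey-4 (Y39A1C.3).

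The data are Affymetrix arrays of total RNA from staged pools of C. elegans embryos. The pools were collected 0, 23, 41, 53, 66, 83, 101, 122, 143 and 186 min past the 4-cell stage, at 22 °C. The genotypes were mex-3(zu155) embryos with RNAi against skn-1 (called mex-3/skn-1, 28 arrays), pie-1(zu154) embryos (pie-1, 27 arrays), pie-1(zu154) embryos with RNAi against pal-1 (pie-1/pal-1, 34 arrays) and the wild-type strain N2 (34 arrays), giving 40 groups of 2 to 4 arrays. mex-3 encodes an RNA-binding protein of anterior blastomeres, skn-1 and pal-1 encode transcription factors of the posterior lineages, and pie-1 encodes the repressor that keeps the germline blastomeres transcriptionally silent. The mutations and the RNAi act on whole embryos, and no group isolates the germline blastomeres. The labels do not say whether arrays of a group came from separate collections, so a p-value reflects the spread between arrays of a group, and that spread may be technical.

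The values are log2 expression values, so a difference of 1 is a 2-fold difference, and array medians lay between 3.24 and 3.41. Levels were compared within a probe set only, because different probes respond differently. Times were grouped into an early (0, 23 and 41 min), a middle (53, 66 and 83 min) and a late window (101, 122, 143 and 186 min), each taken as the mean of its group means. A probe set was called higher or lower where limma's moderated test gave an adjusted p below 0.05 and the difference was at least 2-fold. Adjustment followed Benjamini and Hochberg across the 22548 probe sets. Each gene is represented by its brightest probe set unless another is named.

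Of the targeted genes, pie-1 read between 3.16 and 3.76 on early pie-1 arrays and between 3.15 and 3.76 on early pie-1/pal-1 arrays, against 6.86 to 8.20 on early N2 arrays. mex-3 read between 3.16 and 3.95 on early mex-3/skn-1 arrays, against 6.38 to 9.02 on early N2 arrays, without overlap. pal-1 was below every N2 array on 8 of 11 early pie-1/pal-1 arrays and above every N2 array on the other 3, with a highest value of 12.21. It was also above every N2 array on 2 of 10 middle and 4 of 13 late pie-1/pal-1 arrays (highest values of 7.83 and 10.32). mex-3 read 6.36 on 1 of 12 late mex-3/skn-1 arrays, where the highest late N2 array read 5.33. On these 9 pie-1/pal-1 arrays and 1 mex-3/skn-1 array the targeted gene goes against the label. In pie-1 embryos, where pal-1 was not targeted, the highest middle value of pal-1 was 12.49, against 7.42 in N2 embryos. Late mex-3, not targeted in either pie-1 genotype, was above every N2 array on 2 of 13 pie-1/pal-1 arrays and 1 of 12 pie-1 arrays. The highest values were 9.46 and 6.09. High values of genes not targeted in a genotype were not used to leave out arrays. skn-1 was dim in both genotypes (medians of 3.67 on early mex-3/skn-1 arrays and 3.91 on early N2 arrays) and could not be used as a check. Markers of sperm (6 of 6 genes) and of adult soma (5 of 5 genes) averaged under 4 in the early and the late window of every genotype. Genes of the adult gonad (rme-2, him-3, htp-3 and syp-1, all 4 measured) had early medians of 6.23 in mex-3/skn-1 embryos, 6.12 in pie-1 embryos and 5.83 in pie-1/pal-1, against 6.29 in N2 embryos. Their late medians were 3.93, 3.62, 3.44 and 3.98 in the same order. In all, 5 arrays stood apart from their group, 1 of mex-3/skn-1 at 0 min and both at 143 min, and 1 of pie-1/pal-1 at 41 and at 143 min each. The 2 mex-3/skn-1 arrays of 143 min were each measured against the other. There the measure shows only that the pair disagreed, not which array was off. Each scan day that the array descriptions give held 1 genotype only, so scan day and genotype cannot be told apart. All 34 N2 arrays were of 1 chip lot, and no mex-3/skn-1 or pie-1/pal-1 array with a stated lot was of it. Chip lot therefore cannot be told apart from these genotypes in comparisons with N2. The descriptions marked 5 arrays as rehybridised, and on 2 arrays they gave a time other than the label, which was used. In N2 embryos scan day also ran with time: 1 day held 9 early and no late arrays, and another 10 late and no early arrays.

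The 4 genes had 3 kinds of course. cey-2 and cey-3 fell in every genotype, cey-1 rose in every genotype, and cey-4 was called in none. The late minus early difference was between -4.66 and -2.77 log2 units for cey-2, between -3.79 and -3.16 for cey-3, between 1.16 and 2.78 for cey-1 and between 0.15 and 0.58 for cey-4. In whole embryos a loss of transcript from all cells and its restriction to few cells cannot be told apart.

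**Figure D1:**
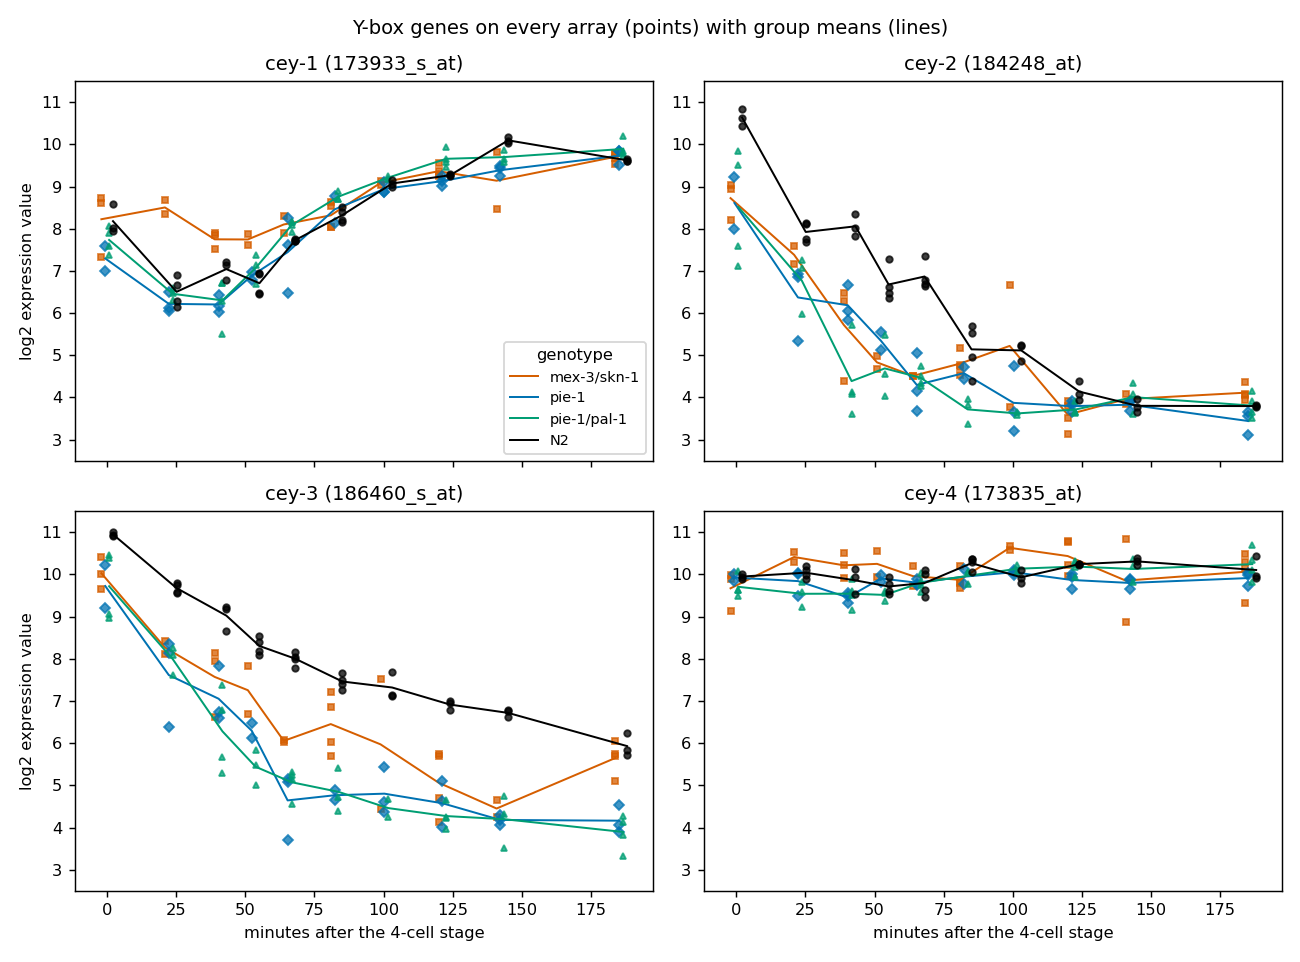
Log2 expression value (y axis) of the brightest probe set of each gene against minutes after the 4-cell stage (x axis), 1 point per array and 1 line through the group means of each genotype, with points shifted slightly sideways. cey-2 and cey-3 descend with N2 above the mutants for most of the course, cey-1 has its low point before 66 min and its high point at 143 min (N2) or 186 min (mutants), and cey-4 stays between 8.87 and 10.83.

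cey-2, one of the germline Y-box genes, was brightest at 0 min in every genotype. At that time its values were 8.21, 8.94 and 9.02 on the 3 mex-3/skn-1 arrays, 7.99 and 9.23 on the 2 pie-1 arrays and 7.13, 7.59, 9.51 and 9.84 on the 4 pie-1/pal-1 arrays. The 3 N2 arrays read 10.44, 10.62 and 10.84, and every one of them lay above every mutant array. At 23 min cey-2 read 7.17 and 7.59 in mex-3/skn-1 embryos and 5.33, 6.85 and 6.94 in pie-1 embryos. The pie-1/pal-1 arrays of that time read 5.98, 7.06 and 7.27, against 7.68, 7.76, 8.12 and 8.14 in N2 embryos, so all mutant arrays were again the lower ones.

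At 66 min cey-2 averaged 4.51 ± 0.01 (SD, n = 2) on mex-3/skn-1 arrays, 4.30 ± 0.70 (n = 3) in pie-1 embryos and 4.47 ± 0.21 (n = 4) in pie-1/pal-1 embryos, against 6.87 ± 0.32 (n = 4) in N2 embryos. At 186 min the means were 4.11 ± 0.19 (n = 4) in mex-3/skn-1 embryos, 3.44 ± 0.29 (n = 3) in pie-1 embryos, 3.81 ± 0.29 (n = 4) in pie-1/pal-1 embryos and 3.80 ± 0.02 (n = 3) in N2 embryos. These last values are within about 1 log2 unit of the array medians, the range in which dim probe sets lie. The mex-3/skn-1 arrays of 101 min disagreed with each other, at 6.67 and 3.78, and over 3785 brighter probe sets the first of them was nearest to the mean of the 66 min arrays of its genotype and the other to that of the 122 min arrays. In all, 19 arrays were nearest to another time of their genotype by that measure, among them 2 of the 3 mex-3/skn-1 arrays of 0 min (nearest to 41 and 23 min). All 19 were mutant arrays, and every N2 array was nearest to its own time. Same-time comparisons with N2 are limited by this, and its part in the differences from N2 was not tested.

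Late minus early, cey-2 fell by 3.05 ± 0.26 log2 units (SE) in mex-3/skn-1 embryos, by 3.32 ± 0.26 in pie-1 embryos, by 2.77 ± 0.23 in pie-1/pal-1 embryos and by 4.66 ± 0.24 in N2 embryos. The adjusted p-values of limma's test were 8.2e-18, 1.4e-20, 1.2e-18 and 1.6e-31 in that order. Of all probe sets, 9.92% were called in mex-3/skn-1 embryos, 13.7% in pie-1 embryos, 12.9% in pie-1/pal-1 and 14.9% in N2 embryos in the same comparison. In pie-1/pal-1 embryos the early arrays of one scan day were brighter than those of the other: at 0 min cey-2 read 9.51 and 9.84 on the first and 7.13 and 7.59 on the second. The change was -3.46 within the first day and -1.90 within the second, and both were called. The 4 adult gonad genes moved in the same direction as cey-2 and cey-3, with 4 of 4 at least 2-fold lower late than early by window means in mex-3/skn-1 and N2 embryos and 3 of 4 in both pie-1 genotypes. Their part in the cey-2 and cey-3 results was not tested.

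cey-3, the other germline gene, is read by a single probe set whose name ends in _s_at, the suffix Affymetrix gives to probes shared by several transcripts, so a contribution from a near-identical transcript cannot be separated. At 0 min it read 9.64, 10.02 and 10.42 in mex-3/skn-1 embryos, 9.21 and 10.23 in pie-1 embryos and 8.96, 9.07, 10.39 and 10.46 in pie-1/pal-1 embryos. The N2 arrays averaged 10.95, and the lowest of them, at 10.91, lay above all mutant arrays. At 186 min it read 3.89, 4.06 and 4.53 in pie-1 embryos and 3.33, 3.83, 4.14 and 4.27 in pie-1/pal-1 embryos, against 5.72, 5.83 and 6.24 in N2 embryos. The 4 mex-3/skn-1 arrays of 186 min read 5.11, 5.70, 5.74 and 6.05 and overlapped N2.

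Between 0 and 186 min the N2 arrays of cey-3 were ordered by time. The group means were 10.95, 9.67, 9.02, 8.30, 8.00, 7.46, 7.32, 6.91, 6.72 and 5.93 at the 10 times, and in 7 of the 9 steps between neighbouring times the arrays did not overlap. The steps from 66 to 83 min and onwards were shallower than the first, which was -1.27 log2 units. In the mutants the arrays did not overlap in 2 downward steps in mex-3/skn-1 embryos, 3 in pie-1 embryos and 2 in pie-1/pal-1 embryos. They also did not overlap in 1 upward step, in mex-3/skn-1 embryos between 143 and 186 min (1.2). How often all probe sets show no overlap in such steps was not counted, so these step counts have no background.

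Late minus early, cey-3 fell by 3.34 ± 0.26 (SE) in mex-3/skn-1 embryos, 3.70 ± 0.25 in pie-1 embryos, 3.79 ± 0.23 in pie-1/pal-1 embryos and 3.16 ± 0.24 in N2 embryos. The adjusted p-values were 4.8e-20, 1.8e-23, 8.9e-27 and 2.0e-21 in that order, from limma. Late and early arrays did not overlap in pie-1 embryos, pie-1/pal-1 or N2 embryos, and overlapped in mex-3/skn-1 embryos, where the brighter array of 101 min read 7.51 and its partner 4.43. The share of all probe sets without such overlap was not counted, so this separation has no background. Within the 2 scan days of pie-1/pal-1 the change was -4.17 and -3.41.

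**Figure D2:**
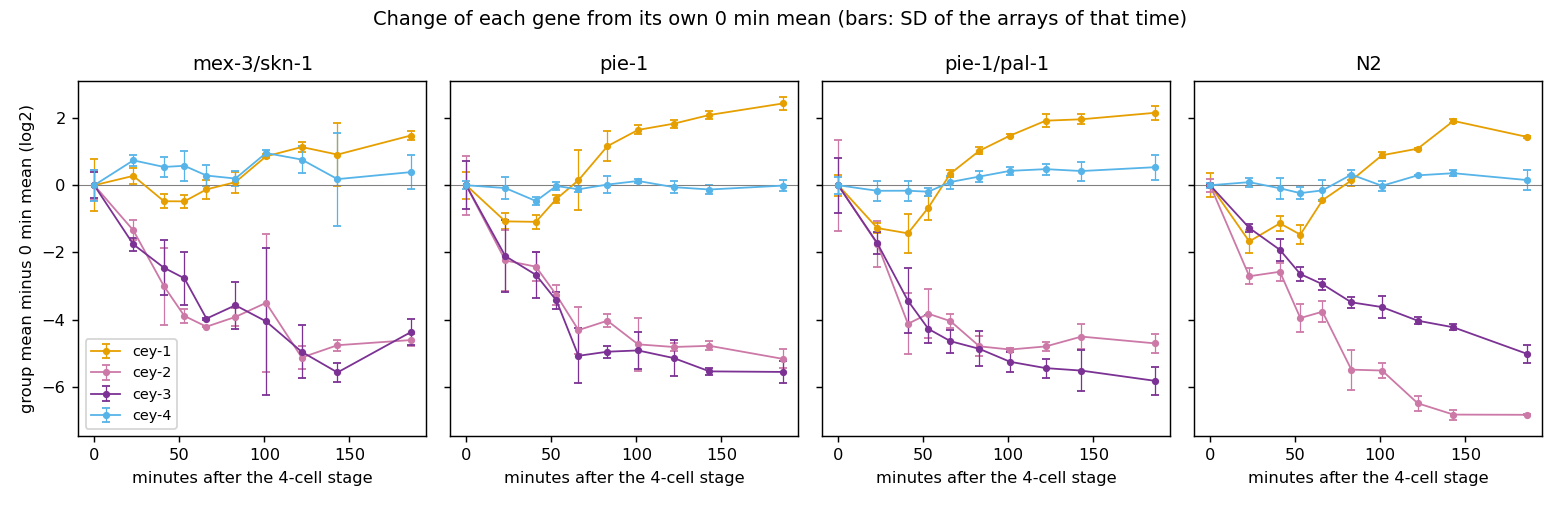
Group mean minus the 0 min mean of the same gene and genotype (y axis, log2) against minutes after the 4-cell stage (x axis), 1 panel per genotype and 1 line per gene, with bars for the SD of the arrays of each time. In N2 embryos cey-2 ends 6.84 and cey-3 5.02 log2 units below 0 min, and in pie-1/pal-1 embryos cey-3 ends below cey-2.

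From the early to the middle window cey-2 fell by 2.56 in mex-3/skn-1 embryos, 2.32 in pie-1 embryos, 2.27 in pie-1/pal-1 and 2.64 in N2 embryos. The changes of cey-3 were -2.03, -2.90, -2.88 and -1.96 in the same order. All 8 changes were called, against 6.16%, 9.3%, 8.52% and 8.33% of all probe sets. From the middle to the late window cey-2 fell by 1.01 in pie-1 embryos and by 2.02 in N2 embryos, while its changes of -0.49 in mex-3/skn-1 embryos and -0.50 in pie-1/pal-1 embryos were not called. cey-3 fell by 1.30 in mex-3/skn-1 embryos and also in N2 embryos (-1.2), and its changes of -0.80 in pie-1 embryos and -0.91 in pie-1/pal-1 embryos were not called. In this second step 5.76%, 5.86%, 6.81% and 6.85% of all probe sets were called in mex-3/skn-1 embryos, pie-1, pie-1/pal-1 and N2 embryos. Without pie-1 replicate 4 the pie-1 change of cey-2 was -0.82, and the mex-3/skn-1 change of cey-3 was -0.84 without mex-3/skn-1 replicate 2, neither being called. In all, that pie-1 change of cey-2 was not called under 6 of 16 alternatives, and that mex-3/skn-1 change of cey-3 under 5 of 21. The cey-3 changes not called above were called under 6 of 20 alternatives in pie-1/pal-1 embryos and 1 of 16 in pie-1 embryos. With the replicate label as a block the cey-3 changes of this step were -0.89 and not called in mex-3/skn-1 embryos and -1.01 and called in pie-1/pal-1 embryos. With scan day as a block they were -1.14, not called, and -1.02, called.

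Interpolated between group means, cey-2 stood 1 log2 unit below its 0 min mean after 17.1 min in mex-3/skn-1 embryos, 10.3 min in pie-1 embryos, 13.2 min in pie-1/pal-1 and 8.49 min in N2 embryos. For cey-3 these times were 13.1, 10.9, 13.3 and 18.1 min in the same order. All lie in the first interval, before the 23 min arrays, so they rest on a straight line between 2 times and were not tested. A drop of 4 log2 units was reached by cey-2 after 57.4, 62.1, 40 and 68.3 min and by cey-3 after 99.0, 57.5, 49.0 and 120.2 min. By that measure the N2 course of cey-3 was the longest of the 8, a comparison with no test.

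Within an array, the changes of the 2 genes were set side by side. The change of cey-2 minus that of cey-3 was 0.28 ± 0.20 log2 units in mex-3/skn-1 embryos (SE, 95% interval -0.11 to 0.68) and 0.38 ± 0.19 in pie-1 embryos (-0.01 to 0.76), intervals that include 0. The same difference was 1.02 ± 0.18 (0.67 to 1.37) in pie-1/pal-1 embryos. It had the opposite sign in N2 embryos, at -1.50 ± 0.18 (-1.85 to -1.14). Since the genes were chosen with results of these arrays known, no p is given for these differences. Over the 40 group means the courses of cey-2 and cey-3 had a Pearson correlation of 0.93, and over the 10 N2 means of 0.98. The points share arrays and a common time axis. cey-2 was near the array medians already at 41 min on 3 of the 4 pie-1/pal-1 arrays (3.61, 4.09 and 4.14), and its late mean there was 3.80, so the size of its change is limited by that level.

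Set against N2, both germline genes were lower in all 3 mutant genotypes in the early window. The difference of cey-2 was -1.60 ± 0.27 (SE, adjusted p = 7.4e-07) in mex-3/skn-1 embryos, -1.81 ± 0.27 (9.3e-08) in pie-1 embryos and -2.31 ± 0.25 (7.5e-13) in pie-1/pal-1 embryos, from limma. The difference of cey-3 was -1.26 ± 0.27 (6.3e-05), -1.75 ± 0.26 (1.8e-07) and -1.88 ± 0.24 (7.9e-10) in that order. In these comparisons 7.19%, 2.56% and 3.92% of all probe sets were called. At 23 min alone, the early time at which N2 arrays carry numbered replicate labels, the cey-2 difference of mex-3/skn-1 was -0.54 and not called, and that of pie-1/pal-1 was -1.15 and not called. Taken by scan day against all N2 arrays, the early pie-1/pal-1 differences were -1.62 for cey-2 and -1.32 for cey-3 on the day with brighter arrays and -3.14 and -2.51 on the other, all called. rme-2, the yolk receptor gene of the adult gonad list, averaged 7.78 in early mex-3/skn-1 embryos, 4.42 in pie-1 embryos and 4.39 in pie-1/pal-1, against 5.66 in N2 embryos. The rest of that list (him-3, htp-3 and syp-1) was lower than N2 in all 3 mutant genotypes, each gene by under 2-fold. In early mex-3/skn-1 embryos these genes averaged 6.17, 6.29 and 5.67, against 6.59, 6.91 and 6.00 in N2 embryos. The part of the adult gonad genes in these differences was not tested. The 3 comparisons share the N2 arrays.

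In the late window cey-3 was lower than N2 in all 3 mutant genotypes, with differences of -1.44 ± 0.23 (adjusted p = 2.7e-07) in mex-3/skn-1 embryos, -2.29 ± 0.22 (4.8e-14) in pie-1 embryos and -2.51 ± 0.22 (7.2e-16) in the pie-1/pal-1 genotype, by limma's test. No late array of pie-1 or of pie-1/pal-1 overlapped the N2 arrays, whose late cey-3 values ran from 5.72 to 7.68 around a median of 6.78. How many of all probe sets are separated in this way was not counted. Without mex-3/skn-1 replicate 2 the mex-3/skn-1 difference was -0.97 and not called. The late pie-1 arrays ran from 3.89 to 5.42 and the late pie-1/pal-1 arrays from 3.33 to 4.74. cey-2 differed by 0.01 ± 0.23 in mex-3/skn-1 embryos (adjusted p = 0.98), -0.48 ± 0.23 in pie-1 embryos (0.082) and -0.43 ± 0.23 in pie-1/pal-1 embryos (0.14), called in none of them. In these late comparisons 6.27%, 2.96% and 2.33% of all probe sets were called.

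At single times, every pie-1 array and every pie-1/pal-1 array lay below every N2 array for cey-3 at all 10 times. For mex-3/skn-1 this held at 8 of 10 times, with overlap at 101 and 186 min. For cey-2 it held at 8 of 10 times in pie-1 embryos, at 8 in pie-1/pal-1 embryos and at 6 in mex-3/skn-1 embryos. The share of all probe sets with such separation was not counted, so these counts have no background and were not tested. Groups hold few arrays, and brighter probe sets were lower than N2 in general, as given below. The counts therefore do not show separation particular to cey-2 or cey-3. At 186 min every mex-3/skn-1 array lay above every N2 array for cey-2, by 0.32 on average. The mean difference of cey-3 from N2 ranged from -3.36 to -1.22 in pie-1 embryos, from -2.93 to -1.23 in pie-1/pal-1 and from -2.27 to -0.28 in mex-3/skn-1 embryos.

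**Figure D3:**
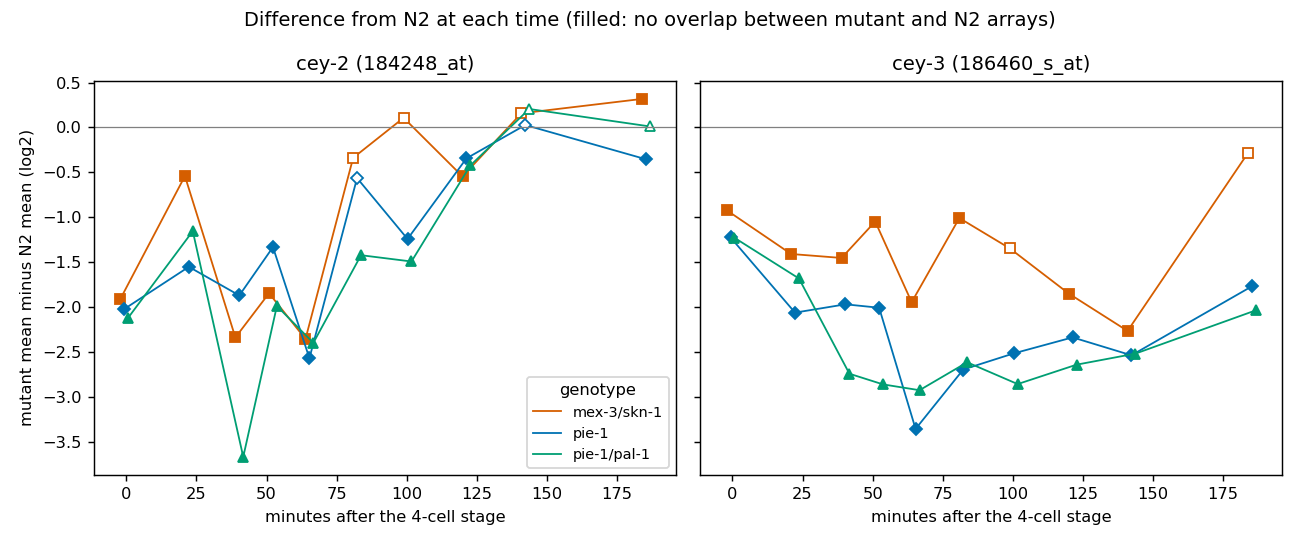
Mutant mean minus N2 mean (y axis, log2) at each time (x axis, minutes after the 4-cell stage) for cey-2 and cey-3, 1 line per mutant genotype, with filled symbols where no mutant array overlapped an N2 array. At 186 min the cey-2 differences lie between -0.35 and 0.32, whereas those of cey-3 are -1.77 in pie-1 embryos, -2.04 in pie-1/pal-1 embryos and -0.28, with overlapping arrays, in mex-3/skn-1 embryos.

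Of 8 listed genes of germline blastomeres and P granules (pgl-1, pgl-3, glh-1, glh-2, nos-2, meg-1, xnd-1 and pie-1 itself), 3 were at least 2-fold lower than N2 in early mex-3/skn-1, 6 in early pie-1 and 7 in early pie-1/pal-1 embryos by their window means. In the late window these counts were 1, 3 and 3. The counts of both pie-1 genotypes include pie-1, the mutated gene, so its part in them follows from the genotype. It averaged 3.52 and 3.45 there early, against 7.69 in N2 embryos. The share of all probe sets was not counted by window means. By limma's call, in either direction, it was 7.19%, 2.56% and 3.92% early and 6.27%, 2.96% and 2.33% late. The median of the list was 3.68 in late mex-3/skn-1, 3.41 in late pie-1 and 3.36 in late pie-1/pal-1 embryos, against 4.14 in late N2 embryos. The part of germ-cell number in the cey-3 result was not tested. The mutants also differed from N2 in general: among 3792 probe sets averaging 5 or more, the median difference was -0.52 for mex-3/skn-1, -0.20 for pie-1 and -0.30 for pie-1/pal-1 in the early window and -0.50, -0.34 and -0.24 in the late window. Quantile normalization left the early and late cey-3 differences of mex-3/skn-1 at -0.98 and -0.89, under 2-fold, and those of both pie-1 genotypes called.

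The interaction contrast is the late difference from N2 minus the early one. For cey-2 the late minus early change was 1.61 ± 0.36 log2 units smaller in size in mex-3/skn-1 than in N2 embryos (adjusted p = 0.00046), 1.34 ± 0.35 smaller in pie-1 embryos (0.011) and 1.89 ± 0.33 smaller in pie-1/pal-1 embryos (2.3e-05), by the interaction contrast in limma. cey-3 gave -0.17, -0.54 and -0.63 and was called in none. In these interaction contrasts 3.7%, 0.887% and 1.17% of all probe sets were called. Late cey-2 values averaged 4.10, 3.73 and 3.80 in mex-3/skn-1 arrays, pie-1 arrays and pie-1/pal-1 arrays, against 4.21 in N2 arrays, near the array medians in all 4. The contrast therefore rests on the early differences of -1.60, -1.81 and -2.31, and does not show that the courses differed above the level of dim probe sets. With only the N2 times of numbered arrays the 3 values were 0.43, 1.2 and 0.95 and none was called. The pie-1 contrast was also lost without pie-1 replicate 2 (1.22) or 3 (1.09).

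cey-1, a Y-box gene also used in somatic tissues, had its lowest means between 23 and 53 min and rose later in every genotype. Its brightest probe set, 173933_s_at, carries the same shared-probe suffix as that of cey-3. 173932_at, without that suffix, gave smaller late minus early rises in every genotype, listed below. At 0 min cey-1 averaged 8.22 ± 0.77 (SD, n = 3) on mex-3/skn-1 arrays, 7.29 ± 0.41 (n = 2) in pie-1 embryos, 7.73 ± 0.31 (n = 4) in pie-1/pal-1 and 8.18 ± 0.35 (n = 3) in N2 embryos. Its lowest group mean came at 53 min in mex-3/skn-1 embryos (7.74), at 41 min in pie-1 embryos (6.20) and pie-1/pal-1 (6.30) and at 23 min in N2 embryos (6.50). In N2 embryos the 4 arrays of 23 min read 6.14, 6.30, 6.67 and 6.91, below all 3 arrays of 0 min at 7.94, 8.01 and 8.59. The same step separated the arrays of pie-1 and of pie-1/pal-1 embryos, where the means differed by -1.08 and -1.28. The mex-3/skn-1 arrays of 23 min, at 8.34 and 8.67, lay within the range of those of 0 min.

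At 186 min the values were 9.54, 9.68, 9.80 and 9.80 in mex-3/skn-1 embryos, 9.51, 9.83 and 9.84 in pie-1 embryos, 9.73, 9.80, 9.84 and 10.20 in pie-1/pal-1 and 9.60, 9.61 and 9.65 in N2 embryos. Late minus early, cey-1 rose by 1.16 ± 0.15 (SE, adjusted p = 7.7e-11) in mex-3/skn-1 embryos, 2.72 ± 0.14 (4.5e-31) in pie-1 embryos, 2.78 ± 0.13 (1.1e-34) in pie-1/pal-1 and 2.27 ± 0.13 (5.1e-28) in N2 embryos, in limma's test. In mex-3/skn-1 embryos the late and early arrays overlapped, and without replicate label 2 the change there was 0.93 and no longer called. From the early to the middle window cey-1 rose in pie-1 embryos (1.02) and pie-1/pal-1 embryos (1.14), and its differences of -0.10 in mex-3/skn-1 embryos and 0.35 in N2 embryos were not called. With the replicate label as a block over numbered arrays the N2 change was 1.11 and called. The pie-1 rise was not called without pie-1 replicate 2 or without replicate 3, the lower value being 0.91. In all, it was not called under 6 of 18 alternatives, other probe sets included, and the pie-1/pal-1 rise under 3 of 22. Averaged over arrays, 173932_at went from 5.82 to 6.37 in pie-1 embryos and from 6.13 to 6.67 in pie-1/pal-1, early to middle. 192145_s_at went from 4.3 to 4.5 in both. From the middle to the late window cey-1 rose in all 4, by 1.27, 1.70, 1.64 and 1.93 in mex-3/skn-1 embryos, pie-1, pie-1/pal-1 and N2 embryos. This last step was not called under 2 of 23 alternatives in mex-3/skn-1 embryos and 1 of 18 in pie-1 embryos.

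Against N2, early cey-1 differed by 0.92 ± 0.15 in mex-3/skn-1 embryos, -0.67 ± 0.15 in pie-1 embryos and -0.41 ± 0.14 in pie-1/pal-1 embryos, each under the 2-fold limit. At 23 min the means were 8.50 ± 0.24 (SD, n = 2) in mex-3/skn-1 embryos and 6.50 ± 0.35 (n = 4) in N2 embryos, and the arrays did not overlap. How often this occurs over all probe sets was not counted. Under quantile normalization the early difference of mex-3/skn-1 was 1.46 and called. Late cey-1 differed by -0.19, -0.22 and 0.10 in mex-3/skn-1 embryos, pie-1 embryos and pie-1/pal-1 embryos and was not called. The late minus early change was lower by 1.11 ± 0.20 in mex-3/skn-1 than in N2 embryos (adjusted p = 8.5e-06). That interaction was not called over the 0 and 41 min N2 arrays with lettered labels and their late counterparts (-0.85), or without replicate label 1 (-0.94). With the single times 0 and 186 min in place of the windows it was 0.04.

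cey-4, the remaining Y-box gene with somatic expression, was called in no comparison by its brightest probe set. Its values over all arrays ran from 8.87 to 10.83, with both extremes on the 2 mex-3/skn-1 arrays of 143 min, which both stand apart. At 0 min it averaged 9.67 ± 0.47 (SD, n = 3) on mex-3/skn-1 arrays, 9.92 ± 0.12 (n = 2) in pie-1 embryos, 9.70 ± 0.26 (n = 4) in pie-1/pal-1 and 9.95 ± 0.07 (n = 3) in N2 embryos. At 186 min the averages were 10.06 ± 0.50 (n = 4), 9.91 ± 0.17 (n = 3), 10.24 ± 0.37 (n = 4) and 10.10 ± 0.29 (n = 3) in the same order. Over the 10 times the group means spanned 0.96 log2 units in mex-3/skn-1 embryos, 0.60 in pie-1 embryos, 0.73 in pie-1/pal-1 and 0.59 in N2 embryos.

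The late minus early difference of cey-4 was 0.15 ± 0.14 (SE, adjusted p = 0.51) in mex-3/skn-1 embryos, 0.17 ± 0.13 (0.39) in pie-1 embryos, 0.58 ± 0.12 (4.3e-05) in pie-1/pal-1 and 0.20 ± 0.12 (0.27) in N2 embryos, from limma. The pie-1/pal-1 value passed the test but not the 2-fold limit. An F test over the 10 times of a genotype, from the same limma fit, passed for cey-1, cey-2 and cey-3 in all 4 genotypes. For cey-4 it passed in mex-3/skn-1 embryos (adjusted p = 0.013) and pie-1/pal-1 (0.0041) and not in pie-1 embryos (0.70) or N2 embryos (0.19). That test passed for 46.5%, 34.4%, 36.2% and 39.2% of all probe sets in mex-3/skn-1 embryos, pie-1, pie-1/pal-1 and N2 embryos. Against N2, cey-4 differed by between -0.35 and 0.15 in the early and between -0.24 and 0.10 in the late window and was not called. Its interaction contrasts with N2 lay between -0.05 and 0.38 and were not called either.

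**Figure D4:**
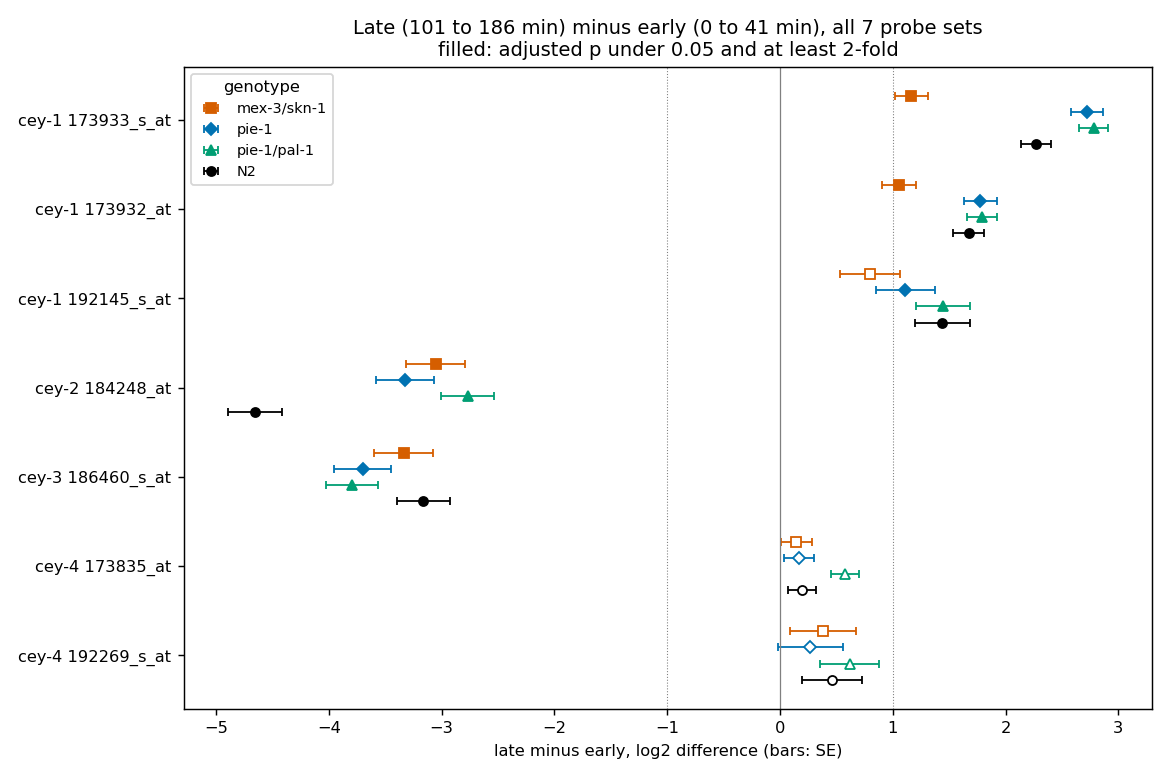
Late minus early difference (x axis, log2, bars for SE) of all 7 probe sets, listed down the page, in each of the 4 genotypes, with filled symbols for called differences and dotted lines at 2-fold. The cey-2 and cey-3 probe sets lie between -4.66 and -2.77, the 3 cey-1 probe sets between 0.80 and 2.78, and both cey-4 probe sets between 0.15 and 0.62.

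The change of cey-3 minus that of cey-4 was -3.48 ± 0.29 (SE) in mex-3/skn-1 embryos, -3.87 ± 0.29 in pie-1 embryos, -4.37 ± 0.26 in pie-1/pal-1 and -3.36 ± 0.27 in N2 embryos. The change of cey-2 minus that of cey-4 was -3.20 ± 0.29, -3.49 ± 0.28, -3.35 ± 0.26 and -4.86 ± 0.26 in that order. The change of cey-1 minus that of cey-4 was 1.02 ± 0.15, 2.56 ± 0.15, 2.21 ± 0.13 and 2.07 ± 0.14. By 173932_at for cey-1 it was 0.91, 1.61, 1.21 and 1.47, and by 192145_s_at 0.65, 0.94, 0.87 and 1.24. Over the 40 group means cey-1 and cey-4 had a Pearson correlation of 0.60, and cey-1 and cey-2 one of -0.56, given as descriptions.

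The other probe sets of cey-1 and cey-4 gave the same direction over time. The late minus early differences of 173932_at (cey-1) were 1.06, 1.78, 1.79 and 1.67 in mex-3/skn-1 embryos, pie-1, pie-1/pal-1 and N2 embryos, all called. Those of 192145_s_at (cey-1) were 0.80, 1.11, 1.44 and 1.44, of which the mex-3/skn-1 value was not called. Those of 192269_s_at (cey-4) were 0.38, 0.27, 0.62 and 0.46, none called.

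They disagreed on the comparison with N2. The dimmer cey-4 probe set 192269_s_at was lower than N2 in all 3 genotypes, with differences of -1.21, -1.24 and -1.48 in the early and -1.29, -1.43 and -1.32 in the late window in mex-3/skn-1 embryos, pie-1 embryos and pie-1/pal-1 embryos. The brightest cey-4 probe set showed no called difference in the same arrays. The dimmest cey-1 probe set 192145_s_at was lower in both pie-1 genotypes early (-1.24 and -1.25) and in all 3 late (-1.63, -1.57 and -1.25), and its early mex-3/skn-1 difference of -0.99 was not called. The control probe sets for the 3′ and 5′ ends of GAPDH differed by 1.48 ± 0.39 log2 units (SD over arrays) in mex-3/skn-1 embryos, 1.19 ± 0.38 in pie-1 embryos, 1.40 ± 0.30 in pie-1/pal-1 and 0.77 ± 0.27 in N2 embryos. The part of this difference in the probe sets' disagreement was not tested. With the GAPDH difference as a term in the fit, the early cey-3 difference of mex-3/skn-1 was -0.84 and not called, and the other called cey-2 and cey-3 differences from N2 stayed called.

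Courses most like those of the Y-box genes were sought among all probe sets with 1 symbol. By Pearson correlation over the 40 group means, the closest to cey-2 were mex-5 (0.97), a zinc-finger gene of embryonic polarity, cpg-1 (0.97), a chondroitin proteoglycan of the eggshell, inx-14 (0.96), a gap junction innexin of the gonad, and syp-2 (0.96), a synaptonemal complex protein. The closest to cey-3 were upp-1 (0.99), gyg-2 (0.98), a glycogenin, puf-5 (0.97), a Pumilio-family RNA regulator of oocytes, and egg-3 (0.97), an egg activation gene. The closest to cey-1 were ufc-1 (0.94), of the ufmylation pathway, sec-15 (0.94), an exocyst subunit, ain-1 (0.93), a partner of the microRNA machinery, and pis-1 (0.92). For cey-4 the closest were him-1 (0.73), a cohesin subunit, phka-1 (0.72), obr-3 (0.72) and copa-1 (0.71), a coatomer subunit. The group means of cey-4 spanned under 1 log2 unit in each genotype, so its correlations describe small differences. Over all arrays sec-15, obr-3, phka-1, syp-2 and mex-5 averaged 3.58, 3.70, 4.09, 4.23 and 4.40. These means are within about 1 log2 unit of the array medians, where dim probe sets lie. Ranked by Spearman's rho in place of Pearson's r, 4 of the 4 genes for cey-1, 2 for cey-2, 2 for cey-3 and 3 for cey-4 were shared. Over the 10 N2 means alone, 0, 0, 1 and 1 were shared.

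Of 31 listed genes for other RNA-binding and messenger ribonucleoprotein factors, 30 were measured. Late minus early, 4 were called higher and 9 lower in mex-3/skn-1 embryos, 4 and 11 in pie-1 embryos, 6 and 8 in pie-1/pal-1 and 4 and 10 in N2 embryos. Of all probe sets, 9.92%, 13.7%, 12.9% and 14.9% were called in either direction. The median difference of the list was -0.45, -0.58, -0.38 and -0.52, beside medians over all probe sets of 0.01, 0.03, -0.01 and 0.02. Among the 3792 probe sets averaging 5 or more, the medians were -0.19, -0.30, -0.09 and -0.13. Listed genes stand by their brightest probe sets, and the share called among brighter probe sets was not counted. In N2 embryos oma-2 fell by 3.92, puf-5 by 3.56, gld-1 by 3.05 and oma-1 by 2.87. oma-1 and oma-2 encode zinc-finger proteins of the oocyte, and gld-1 a translational repressor of the germ line. The poly(A)-binding protein genes pab-1 (2.26) and pab-2 (2.16) and the cap-binding protein genes ife-4 (1.64) and ife-2 (1.33) rose. All 8 were called in the same direction in the 3 mutant genotypes.

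Of the same list, cgh-1, car-1 and lin-28 were picked once their values were known, because they bear on Y-box proteins. cgh-1, which encodes a DEAD-box helicase of germline messenger ribonucleoprotein particles, changed by -0.60 in mex-3/skn-1 embryos, -0.72 in pie-1 embryos and -0.63 in pie-1/pal-1 embryos, none called, and fell by 2.33 in N2 embryos. car-1, whose product is found in the same particles, fell by 1.13 in mex-3/skn-1 embryos and changed by 0.04, -0.33 and -0.52 in pie-1 embryos, pie-1/pal-1 and N2 embryos, none called. lin-28, which combines a cold-shock domain with zinc fingers, changed by -0.69, -0.17, 0.06 and 0.13 in mex-3/skn-1 embryos, pie-1, pie-1/pal-1 and N2 embryos and was called in none.

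Without the 5 arrays that stand apart, cey-2 changed by -3.05 in mex-3/skn-1 embryos and -2.63 in pie-1/pal-1 embryos, cey-3 by -3.12 and -3.80, cey-1 by 1.08 and 2.84 and cey-4 by 0.19 and 0.50, and no call among these 8 late minus early differences changed. This setting has no mex-3/skn-1 arrays of 143 min. The early cey-1 difference between mex-3/skn-1 and N2 embryos was 1.07 and called in this setting, and also without mex-3/skn-1 replicate label 5, whose only early array is 1 of the 5. Without the 10 arrays on which mex-3 or pal-1 went against the label, no comparison of the 4 brightest probe sets changed its call. Late minus early, cey-2 then changed by -2.59 and cey-3 by -3.53 in pie-1/pal-1 embryos. The early differences of pie-1/pal-1 from N2 were -2.53 and -2.17, and the late cey-3 difference was -2.53.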

How the data were processed

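The log2 values were deposited by the authors as 1 table with a value per probe set and array. The log2 scale was read from their range, 1.79 to 12.72. How probes were summarised, background treated and arrays normalized was not given in the sources used here, so the values were used as they stand. Of 22625 probe sets 77 controls were left out. Genotype and time came from the labels, and gene symbols from the platform's probe table.

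limma 3.58.1 in R 4.3.3 fitted a mean for each of 40 groups over all arrays (83 residual degrees of freedom), with contrasts between windows of times, eBayes and Benjamini-Hochberg adjustment. The fit was tested on simulated data. Within-array differences used the same model without moderation. Tables were summarised in Python 3.11.15 with pandas 2.3.3. Array description files gave scan days for 96 arrays, and 26 pie-1 arrays had none.

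Named were all cey probe sets, lin-28, the 4 genes with 1 symbol and the most similar course for each cey gene, and the 4 largest N2 changes in each direction in the list of RNA-binding factors. The members and lists were chosen with earlier results of these data known. An array stood apart when its median absolute deviation from the mean of its group's other arrays, over 3785 brighter probe sets, exceeded the median over arrays by 3 scaled median absolute deviations. Same-numbered arrays of a genotype had median residual correlations of 0.10, 0.14, 0.30 and 0.07 (mex-3/skn-1, pie-1, pie-1/pal-1, N2), beside -0.01, -0.05, -0.10 and -0.05 for other pairs. Same-numbered pairs ran from -0.48 to 0.73, and the main fit did not take numbers to pair arrays. Their medians lay above those of other pairs in every genotype, so the main p-values may ignore a shared batch. The alternatives covered normalization, centring, filters, priors, array weights, windows, blocks, probe sets and left-out replicates. The number of arrays limits the precision.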

Additional observations from a re-analysis of the deposited data

Results flagged for a closer look

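By limma's interaction contrast, the late minus early change of cey-2 minus that of N2 was 1.61 log2 units in mex-3/skn-1 embryos, 1.34 in pie-1 embryos and 1.89 in pie-1/pal-1 embryos (adjusted p = 0.00046, 0.011 and 2.3e-05). Late cey-2 values lie near the array medians in every genotype, so these contrasts rest on the early differences. The change of cey-1 differed between mex-3/skn-1 and N2 embryos by -1.11 (adjusted p = 8.5e-06). These 4 contrasts share the N2 arrays.

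Among 48 groups of 4 arrays, taken over the 4 brightest probe sets, 1 array lay far from the other 3. It was replicate 1 of pie-1/pal-1 at 122 min, where cey-2 read 3.91 and the others 3.64 to 3.66. Chance alone gives such a gap in about 1 of 20 groups.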

How the results depend on the processing

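Every late minus early call of cey-2, cey-3 and cey-1 held under the alternatives run, except cey-1 in mex-3/skn-1 embryos with probe set 192145_s_at (0.80) and without replicate 2 (0.93, where leaving out each replicate gave 0.93 to 1.34). That of cey-4 was called under none, and changed sign in mex-3/skn-1 embryos without replicate 2 (-0.13) and over numbered times (-0.16) and in pie-1 embryos with single times (-0.01). Of the differences from N2, cey-3 in mex-3/skn-1 embryos lost its early call under quantile normalization (-0.98), centring on brighter probe sets (-0.76), single times (-0.92) and the GAPDH term (-0.84). Its late call was lost under the first 3 of these (-0.89, -0.90 and -0.28) and without mex-3/skn-1 replicate 2 (range over replicates -1.82 to -0.97). With single times the early cey-3 differences of pie-1 (-1.22) and pie-1/pal-1 (-1.23) and the cey-2 interaction of pie-1 (1.67) were not called. Over times with numbered N2 arrays the early cey-2 differences of mex-3/skn-1 embryos (-0.54) and of pie-1/pal-1 embryos (-1.15) and the cey-2 interactions (0.43, 1.2 and 0.95 in mex-3/skn-1 embryos, pie-1 embryos and pie-1/pal-1) were not called. The pie-1 interaction was not called over lettered times either (1.34), nor without pie-1 replicate 2 or 3 (range over replicates 1.09 to 1.70). The early cey-1 difference of mex-3/skn-1 became called under quantile normalization (1.46), centring on brighter probe sets (1.41), array weights (1.05), numbered times (2.00), without the arrays that stand apart (1.07), chosen, like scan days and the targeted-gene arrays, after seeing the data, and without mex-3/skn-1 replicate 5 (range over replicates 0.75 to 1.07). The cey-1 interaction of mex-3/skn-1 was not called over lettered times (-0.85), with probe sets 173932_at (-0.61) and 192145_s_at (-0.64) or without replicate 1 (range over replicates -1.34 to -0.94), and changed sign with single times (0.038). With probe set 192145_s_at cey-1 was lower than N2 in pie-1 embryos (-1.24 early, -1.57 late), pie-1/pal-1 (-1.25 early, -1.25 late) and late mex-3/skn-1 embryos (-1.63). With 192269_s_at cey-4 was lower in mex-3/skn-1 embryos (-1.21 early, -1.29 late), pie-1 (-1.24, -1.43) and pie-1/pal-1 embryos (-1.48, -1.32). The cause of these changes was not tested. Values called in neither setting changed sign in 77 instances, between -0.99 and 0.64.

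With the replicate label as a block the late minus early change of cey-2 was -3.23 in mex-3/skn-1 embryos, -3.30 in pie-1 embryos, -2.79 in pie-1/pal-1 and, over numbered arrays, -3.88 in N2 embryos. That of cey-3 was -3.58, -3.67, -3.84 and -3.26, and none of these late minus early calls changed under this block or under scan day as a block. For N2 the scan-day fit rests on the times whose arrays span scan days, since early and late arrays were mostly scanned on different days. It therefore hardly separates day from time there. Late minus middle, the replicate block ended the cey-3 call in mex-3/skn-1 embryos (-0.89) and made one in pie-1/pal-1 embryos (-1.01), and middle minus early it made one for cey-1 in N2 embryos (1.11). Scan day could not be fitted for pie-1, whose arrays mostly lack one.

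With quantile normalization 697 probe sets (44% higher) were called in early mex-3/skn-1 against N2, beside 1621 (5.1%) as reported, and 736 (26.9%) beside 1413 (2.4%) late. In pie-1 these were 328 (40.9%) beside 577 (7.5%) early and 326 (24.8%) beside 668 (2.4%) late, and in early pie-1/pal-1 424 (34%) beside 884 (3.5%). Centring on brighter probe sets gave 745 (53.7%), 710 (46.2%), 345 (30.4%), 311 (34.7%) and 476 (30.5%) in the same order. In late pie-1/pal-1 quantile normalization and that centring gave 34.4% and 44.7% higher, beside 11.6%. Single times, lettered or numbered times, the GAPDH term, scan days and the filter on low values moved another 28 counts by over 1.5 times, to between 0.41 and 2.76 of the reported count.

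Limits are the 2 to 4 arrays of a group, scan days nested in genotypes and, in N2, largely in windows, and an unstated normalization. Others are late cey-2 values near the array medians, the single shared probe set of cey-3, and the shared-probe suffix of the brightest cey-1 probe set.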
